A study of Mus musculus with 18 samples.

Results

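The p53 pathway was followed through 10 genes in whole descending aortas of mice: Trp53, which encodes p53, Cdkn1a, which encodes p21, and 8 further genes that p53 is known to switch on (Mdm2, Ccng1, Phlda3, Eda2r, Trp53inp1, Zmat3, Aen and Bax). They are 10 of the 54281 genes in the count table, and all 10 were among the 15210 genes that passed the filter on low counts, at least 10 counts in at least 6 mice. These 10 genes were chosen by their place in the p53 pathway with the measured difference between HGPS and 2-mo WT aortas of these mice already known, so their difference between HGPS mice and either WT group is given as a description with no test. For these 10 genes p-values are printed for the comparison of the 2 WT groups and for correlations of deviations within groups, and any count of them past a cut-off in a comparison with HGPS mice is likewise a description.

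RNA was measured in 18 male C57BL/6 mice, 6 per group, and the 3 groups were compared to set the premature arterial change of progeria beside that of normal aging. The HGPS mice carried the LMNAG609G genotype, a knock-in at the mouse Lmna gene that makes every cell type that uses the gene produce progerin, the truncated lamin A of Hutchinson-Gilford progeria syndrome, and they were 64 to 75 d old. The 2-mo WT mice were 62 d old in 5 cases and 95 d old in 1, with ages of 609 to 762 d in the 24-mo WT group. The mutant was studied at 2 mo of age alone, and each aorta was taken with intima, media and adventitia. The totals ran from 12413229 to 30844775 estimated counts per mouse. Smooth muscle markers were abundant in every aorta (summed level of 6 genes, 19400 to 37800 CPM, counts scaled to library size), and Lmna was present in all groups, at 415.7 CPM in 2-mo WT, 577 CPM in HGPS and 418 CPM in 24-mo WT (means, n = 6 each). Counts per gene do not separate progerin from normal lamin A transcripts.

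p53 is a transcription factor held low by the ubiquitin ligase Mdm2 and stabilized when DNA is damaged or a cell is otherwise stressed. It binds a response element made of a pair of similar repeats near its target genes. p21 is the best known product of such a target and blocks cyclin-dependent kinases (CDKs), so that the cell cycle stops. Other targets feed back on p53 itself, repair DNA, adjust metabolism or promote cell death. Because p53 is controlled largely through the stability of the protein, the amount of Trp53 RNA is not a readout of p53 activity.

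The p53 response element can be seen in the RefSeq promoter windows of the mouse genome (GRCm38.p6), each holding 250 bases before and 50 after a gene's start. The search was for a pair of 10-base repeats with no spacer, with the C and G of both cores fixed and at most 1 mismatch elsewhere. The motif reads the same on both strands. It was found in 22 of 27025 genes with a window (0.0814%). Of the 10 genes, 8 had a window, and 2 of these, Cdkn1a and Ccng1, held the element. Among 73 other p53 target genes with a window, described further on, 2 held it (2.74%), Gtse1 and Rps27l. The 250 bases upstream of Cdkn1a (chr17:29090729-29090978, plus strand) and Ccng1 (chr11:40755287-40755536, minus strand) are shown because both genes are followed below, with the element in capitals.
Cdkn1a: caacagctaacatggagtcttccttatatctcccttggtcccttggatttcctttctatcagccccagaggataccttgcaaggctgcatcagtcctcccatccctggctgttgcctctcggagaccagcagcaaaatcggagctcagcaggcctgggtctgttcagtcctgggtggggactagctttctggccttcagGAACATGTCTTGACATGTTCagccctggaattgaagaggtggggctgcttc
Ccng1: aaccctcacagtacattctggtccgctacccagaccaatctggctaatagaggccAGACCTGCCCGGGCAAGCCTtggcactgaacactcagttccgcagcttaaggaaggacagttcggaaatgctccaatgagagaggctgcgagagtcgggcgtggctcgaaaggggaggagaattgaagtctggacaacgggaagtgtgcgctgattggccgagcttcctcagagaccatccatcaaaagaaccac
The 4 elements are set side by side here, with the 4-base core of each repeat in capitals.
Cdkn1a: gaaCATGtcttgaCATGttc
Ccng1: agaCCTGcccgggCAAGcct
Gtse1: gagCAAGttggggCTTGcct
Rps27l: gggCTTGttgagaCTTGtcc
The first base of the element lay 51 bases before the start of Cdkn1a (chr17:29090928-29090947), 195 before that of Ccng1 (chr11:40755462-40755481), 1 before that of Gtse1 (chr15:85859945-85859964) and 117 before that of Rps27l (chr9:66946296-66946315). A further Cdkn1a window, whose start lies 2790 bases downstream, held no element. Trp53inp1 and Zmat3 were named only. A match of letters is not a bound site, and elements farther from a start were not searched.

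Cdkn1a (chromosome 17, 29090976 to 29100727, GRCm38) stood highest among the 10 genes in the contrast of HGPS with 2-mo WT aortas. Its level ran from 12.8 to 17.1 CPM in 2-mo WT mice (median 13.4), from 85.0 to 139 CPM in HGPS mice (median 112) and from 14.2 to 25.04 CPM in 24-mo WT mice (median 19.9). No HGPS mouse came near either WT group, and the WT groups overlapped. The log2 fold change of HGPS against 2-mo WT was 2.99 ± 0.13 (standard error), a 7.93-fold higher level, and that against 24-mo WT was 2.51 ± 0.13, or 5.69-fold. An annotated antisense gene overlaps Cdkn1a on the minus strand, and the library kit kept strand.

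Next in the pathway came p53 itself and the genes that act on it. Trp53, whose groups were among the least separated (chromosome 11, 69580359 to 69591873) had 16.1 to 18.9 CPM in 2-mo WT mice (median 17.04), 17.4 to 24.7 CPM in HGPS mice (median 18.9) and 13.6 to 20.8 CPM in 24-mo WT mice (median 18). The 3 groups overlapped, and the log2 fold change of HGPS against 2-mo WT was 0.19 ± 0.10. A pseudogene, Trp53-ps, is annotated and may take some of the reads of Trp53. Mdm2 (chromosome 10, 117688875 to 117710758), both the brake on p53 and one of its targets, had 38.6 to 45.6 CPM in 2-mo WT mice (median 41.6), 62.4 to 78.3 CPM in HGPS mice (median 65.1) and 38.7 to 45.9 CPM in 24-mo WT mice (median 43.2). All HGPS values exceeded those of both WT ages, by a log2 fold change of 0.67 ± 0.07 against 2-mo WT. Ccng1 (chromosome 11, 40748552 to 40755311) encodes cyclin G1, which recruits a phosphatase that activates Mdm2. It had 138.8 to 179.5 CPM in 2-mo WT mice (median 162), 401 to 489 CPM in HGPS mice (median 443) and 164 to 209 CPM in 24-mo WT mice (median 191). The HGPS mice again stood apart from both WT groups, with a log2 fold change of 1.49 ± 0.08 against 2-mo WT.

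Of the genes tied to growth and cell death signals, Eda2r had the largest difference. Eda2r (chromosome X, 97333840 to 97377216) encodes a receptor of the tumor necrosis factor receptor family that binds an isoform of ectodysplasin. It had 5.65 to 7.95 CPM in 2-mo WT mice (median 7.05), 29.3 to 34.5 CPM in HGPS mice (median 29.95) and 5.50 to 9.76 CPM in 24-mo WT mice (median 8.60). HGPS mice were 4.41-fold above 2-mo WT mice (log2 fold change 2.14 ± 0.12) and overlapped neither WT group. Phlda3 (chromosome 1, 135766119 to 135769136), whose product keeps the kinase Akt from the membrane, had 21.9 to 35.03 CPM in 2-mo WT mice (median 28.2), 63.3 to 105 CPM in HGPS mice (median 80.5) and 30.5 to 49.4 CPM in 24-mo WT mice (median 41.3). The difference of HGPS from 2-mo WT was 1.54 ± 0.14 in log2, and the lowest HGPS mouse was above the highest WT mouse of either age.

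Aen and Bax serve cell death more directly. Aen (chromosome 7, 78895854 to 78911209), a nuclease that cuts DNA in dying cells, had 13.9 to 22.1 CPM in 2-mo WT mice (median 20.04), 51.5 to 69.3 CPM in HGPS mice (median 59.5) and 26.4 to 37.5 CPM in 24-mo WT mice (median 27.5). It was the one gene of the 10 in which all 3 groups were apart, in the order 2-mo WT, 24-mo WT, HGPS, and its log2 fold change of HGPS against 2-mo WT was 1.61 ± 0.11. Bax (chromosome 7, 45461697 to 45466898), which opens the outer mitochondrial membrane, had 16.5 to 17.7 CPM in 2-mo WT mice (median 17.1), 30.5 to 37.2 CPM in HGPS mice (median 33.1) and 15.4 to 18.2 CPM in 24-mo WT mice (median 15.96). Its log2 fold change of HGPS against 2-mo WT was 0.97 ± 0.06, a 1.95-fold higher level with groups apart. A predicted gene, Gm45808, overlaps Bax on the same strand, so reads in the overlap could be split between them.

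Trp53inp1 and Zmat3 gave the least separated groups after Trp53. Trp53inp1 (chromosome 4, 11156431 to 11174379), a stress protein that assists p53 and autophagy, had 166 to 323 CPM in 2-mo WT mice (median 259), 236 to 459 CPM in HGPS mice (median 419) and 171 to 302 CPM in 24-mo WT mice (median 232). The groups overlapped at a log2 fold change of HGPS against 2-mo WT of 0.62 ± 0.18. Zmat3 (chromosome 3, 32334792 to 32366014), an RNA-binding zinc finger protein, had 12.8 to 17.95 CPM in 2-mo WT mice (median 15.6), 18.05 to 30.5 CPM in HGPS mice (median 22.3) and 15.0 to 30.6 CPM in 24-mo WT mice (median 20.6). HGPS mice were barely apart from 2-mo WT mice (0.55 ± 0.15) and overlapped 24-mo WT mice (0.09 ± 0.15 in log2). The difference from 24-mo WT was -0.04 with brown fat and skeletal muscle scores as covariates. It was 0.563 with smooth muscle and macrophage scores.

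**Figure D1:**
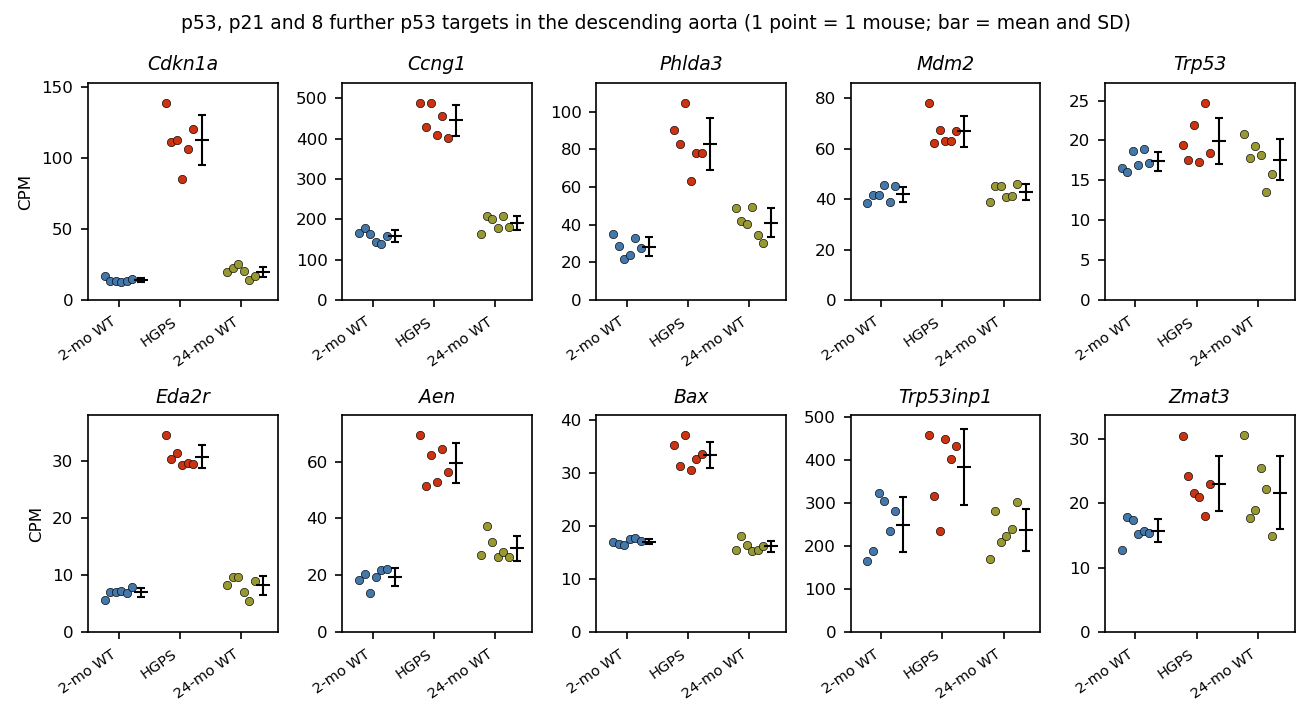
Level in CPM (linear axes from 0) of each of the 10 genes, with 1 point per mouse in 2-mo WT, HGPS and 24-mo WT aortas, and the mean and SD of 6 mice as a bar. In Cdkn1a the HGPS mice run from 85.0 to 139 CPM while neither WT group exceeds 25.04 CPM, and in Trp53 the 3 groups overlap.

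With 2 cut-offs together, a change of 1.5-fold or more and an adjusted p below 0.001, 7 of the 10 genes were higher in the HGPS group and none lower, where 5.27% of all tested genes were higher and 4.23% lower. The HGPS and 2-mo WT values did not overlap in 8 of the 10 genes, with HGPS on top, as in 11% of all tested genes. Since that contrast was known when the genes were chosen, nothing is read from either count. The median log2 fold change was 1.23 over the 10 genes, beside 0.003 over all tested genes. Against 24-mo WT mice, 7 of the 10 genes were past both cut-offs upward, where 6.02% of all tested genes were higher and 6.11% lower, and in 7 the HGPS mice lay wholly above, as in 10.9% of all tested genes. Both comparisons share the HGPS mice, and nothing is read from these counts either. Cdkn1a ranked 33 of 15210 tested genes by log2 fold change in HGPS against 2-mo WT, Eda2r 142 and Trp53 4904.

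Levels between genes were compared per kilobase of the longest coding transcript (mean CPM per kb). In 2-mo WT aortas Trp53inp1 (46.3) and Ccng1 (45.2) led, followed by Phlda3 (19.7), Bax (15.5), Mdm2 (13.3), Trp53 (9.31), Cdkn1a (6.79), Aen (3.91), Zmat3 (2.02) and Eda2r (1.47). Neighbours whose ranges over mice overlapped were Trp53inp1 and Ccng1, Phlda3 and Bax, and Zmat3 and Eda2r. Cdkn1a stood 7 in that order, 4 in HGPS mice (54.0 CPM per kb, with a range that overlapped Phlda3) and 6 in 24-mo WT mice (9.50 CPM per kb, overlapping Trp53).

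Normal aging was tested by setting 24-mo WT against 2-mo WT mice. The 2-mo WT mice are the ones that also stood in the HGPS contrast known when the 10 genes were chosen, so this comparison is not independent of that choice, which favours genes with low values in these mice and hence higher values at 24 mo. With edgeR's quasi-likelihood test and Benjamini-Hochberg adjustment over all 15210 genes, 4 of the 10 genes were higher at 24 mo at an adjusted p under 0.05, where 6.29% of all tested genes were higher and 5.38% lower. None of the 10 passed the stricter cut-offs, which 1.28% of all tested genes passed in that direction. Aen rose by 0.60 ± 0.11 in log2 (1.52-fold, adjusted p = 0.0012), and its groups were apart, as in 3.2% of all tested genes. Phlda3 rose by 0.53 ± 0.14 (adjusted p = 0.0152), Cdkn1a by 0.48 ± 0.13 (1.39-fold, adjusted p = 0.0186) and Ccng1 by 0.26 ± 0.08 (adjusted p = 0.0335).

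The remaining 6 genes did not pass in the aging comparison. Zmat3 differed by 0.46 ± 0.15 (adjusted p = 0.0525) and Eda2r by 0.23 ± 0.12 (adjusted p = 0.231), by the same edgeR test. Without 24-mo WT replicate 5 alone Eda2r passed (adjusted p = 0.0372), and over all alternatives its adjusted p reached 0.401. Mdm2 (0.03 ± 0.07, adjusted p = 0.828), Trp53 (0.02 ± 0.10, adjusted p = 0.949), Trp53inp1 (-0.07 ± 0.18, adjusted p = 0.859) and Bax (-0.07 ± 0.06, adjusted p = 0.499) lay near 0. The two-sided exact permutation test on log2 CPM gave 0.00216 for Aen, the smallest p that 6 against 6 mice allow, 0.00866 for Cdkn1a, 0.0108 for Phlda3 and 0.0152 for Ccng1, none adjusted for the number of genes. The aging call of Cdkn1a held with each mouse left out (edgeR adjusted p up to 0.0477) and was lost with brown fat and skeletal muscle scores as covariates (adjusted p = 0.101). That of Ccng1 was lost without 2-mo WT replicate 4, 5 or 6 or 24-mo WT replicate 2, 3 or 5, without the count filter and with the 2 groups alone (adjusted p up to 0.0824). For Zmat3 the adjusted p ran from 0.0168 to 0.287 over the alternatives, and it passed without HGPS replicate 1 or 5 or 24-mo WT replicate 2 or 6, under DESeq2, with upper quartile scaling, with a mean of at least 100 counts and with smooth muscle and macrophage scores as covariates. The calls of Aen and Phlda3 kept adjusted p at or below 0.0158 and 0.0469 under every alternative run.

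**Figure D2:**
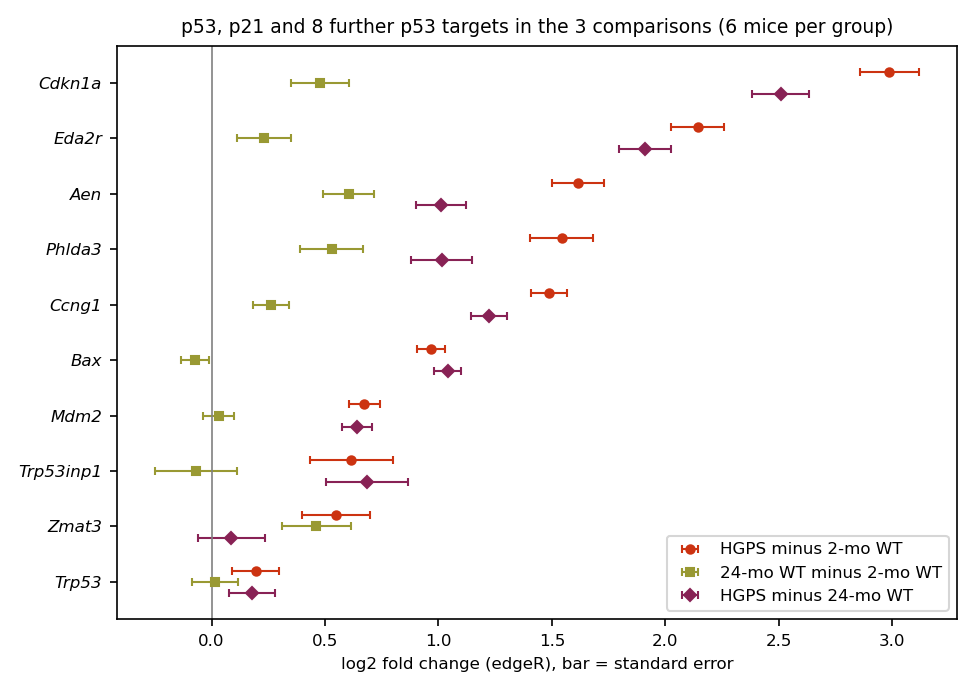
Log2 fold change (x axis) with its standard error for each of the 10 genes (y axis) in HGPS minus 2-mo WT, 24-mo WT minus 2-mo WT and HGPS minus 24-mo WT, from 1 edgeR fit of 6 mice per group. Cdkn1a lies at 2.99, 0.48 and 2.51, Zmat3 at 0.55, 0.46 and 0.09, and Trp53 within 0.2 of 0 in every comparison.

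A larger set of 88 genes that p53 is known to regulate, in 6 lists by function and not counting the 10, was compared in the same fit, and 85 of them were tested. These 6 lists and the further lists below were chosen with earlier results of these data known. Their counts and adjusted p-values are therefore not independent of that choice and serve as a description. In HGPS against 2-mo WT, 46 of the 85 (54.1%) rose at an adjusted p under 0.05 and 9 fell, where 22% of all tested genes rose and 21.2% fell. By both cut-offs, 22 rose (25.9%) and 2 fell, beside 5.27% and 4.23% of all tested genes. The median log2 fold change was 0.34, beside 0.003 over all tested genes. In aging, 12 of the 85 rose (14.1%) and 6 fell at an adjusted p under 0.05, with a median of 0.07, and 4 rose by the stricter cut-offs. Of all tested genes, 6.29% rose and 5.38% fell at that adjusted p, and 1.28% rose by the stricter cut-offs. In HGPS against 24-mo WT, 46 rose and 12 fell at an adjusted p under 0.05, where 23.8% of all tested genes rose and 23.6% fell. The count filter favoured some of the genes that rose, since 5 of the 85 (Gdf15, Pmaip1, Pidd1, Svop and Trp53cor1) reached 10 counts in 6 mice only with the HGPS mice included. Among the other 80 genes, 42 rose and 9 fell against 2-mo WT, and 41 rose and 12 fell against 24-mo WT.

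Among the targets that stop the cell cycle, 4 of 10 tested genes rose in HGPS against 2-mo WT, none fell and 6 did not pass. The shares over all tested genes were 22% higher and 21.2% lower. Gtse1, a microtubule-bound protein that restrains p53 in G2, had 0.533 to 1.09 CPM in 2-mo WT mice (median 0.822), 5.19 to 7.56 in HGPS mice (median 6.25) and 0.968 to 1.58 in 24-mo WT mice (median 1.26). The HGPS mice were wholly above the WT mice (log2 fold change 2.97 ± 0.19, adjusted p = 3.36e-09), in a gene whose promoter window holds the element shown above. Gadd45a, a stress protein of DNA repair and growth arrest, rose by 1.47 ± 0.19 (adjusted p = 7.96e-06), the long noncoding RNA Pvt1 by 1.33 ± 0.15 (adjusted p = 2.04e-06) and the kinase Plk2 by 0.96 ± 0.23 (adjusted p = 0.00238). Trp53cor1, the p53-induced RNA beside Cdkn1a, differed by 0.95 ± 0.46 and did not pass (adjusted p = 0.102), though it did against 24-mo WT (1.496 ± 0.473, adjusted p = 0.0139), and it is one of the genes kept by the filter only through the HGPS mice. Rprm and Ptprv were too low to test. None of the 10 passed in aging, where 6.29% of all tested genes rose.

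Of 16 cell death targets, 10 rose in HGPS against 2-mo WT and none fell, or 8 of 14 without Pmaip1 and Pidd1, which the filter kept only through the HGPS mice. Over all tested genes, 22% rose and 21.2% fell. Pmaip1, which encodes the BH3-only protein Noxa, had 0.138 to 0.768 CPM in 2-mo WT mice (median 0.282), 2.13 to 3.03 in HGPS mice (median 2.63) and 0.117 to 0.925 in 24-mo WT mice (median 0.380). The groups were apart at low counts, 33 in all 2-mo WT mice and 354 in all HGPS mice, with a log2 fold change of 2.97 ± 0.38 (adjusted p = 7.06e-06). Pidd1 (1.26 ± 0.35, adjusted p = 0.00722), an activator of caspase-2 with 16 to 27 counts in each HGPS mouse and 2 to 11 in each 2-mo WT mouse, and Aifm2 (1.01 ± 0.22, adjusted p = 0.00106), a membrane oxidoreductase, also rose. So did Bid (0.995 ± 0.145, adjusted p = 3.02e-05) and the receptors Tnfrsf10b (0.85 ± 0.10, adjusted p = 3.14e-06) and Fas (0.47 ± 0.11, adjusted p = 0.00134). Bbc3, which encodes Puma, differed by 0.49 ± 0.28 and did not pass (adjusted p = 0.159). In aging Pdrg1 (0.44 ± 0.09, adjusted p = 0.00413) and Tnfrsf10b (0.41 ± 0.10, adjusted p = 0.0104) rose, while Apaf1 and Ei24 fell by 0.31 and 0.21. Ei24, an endoplasmic reticulum protein, rose in HGPS against 24-mo WT (0.71 ± 0.05, adjusted p = 5.27e-09), as did Apaf1, the scaffold of the apoptosome (0.61 ± 0.09, adjusted p = 3.1e-05).

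More of the DNA repair targets fell than rose. Of 8 tested, 4 fell in HGPS against 2-mo WT and 2 rose, beside 21.2% and 22% of all tested genes. None of the 8 passed both cut-offs in that comparison. Ddb2, a sensor of ultraviolet damage, had 3.49 to 4.50 CPM in 2-mo WT mice (median 4.16), 1.57 to 2.81 in HGPS mice (median 2.68) and 2.73 to 4.74 in 24-mo WT mice (median 3.22). HGPS mice lay wholly below 2-mo WT mice (log2 fold change -0.72 ± 0.16, adjusted p = 0.00157). Those that fell also included Xpc, which recognizes distorted DNA (-0.38 ± 0.07, adjusted p = 0.000173), and Rrm2b, a ribonucleotide reductase subunit (-0.37 ± 0.09, adjusted p = 0.00376). The genes that rose were Mgmt (0.62 ± 0.14, adjusted p = 0.00122), which removes alkyl groups from guanine, and the bypass polymerase Polh (0.26 ± 0.07, adjusted p = 0.00746). Of the 8, Mgmt alone passed in aging (0.45 ± 0.14, adjusted p = 0.0385).

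Of 21 targets in metabolism and autophagy, 12 rose and 1 fell in HGPS against 2-mo WT, beside 22% and 21.2% of all tested genes. Sesn2, a leucine sensor that restrains the kinase mTORC1, had 5.10 to 9.08 CPM in 2-mo WT mice (median 6.58), 13.1 to 23.6 in HGPS mice (median 17.1) and 5.02 to 9.18 in 24-mo WT mice (median 7.18). It rose by 1.37 ± 0.16 (adjusted p = 3.64e-06) with the HGPS mice apart. The thiamine transporter Slc19a2 (1.09 ± 0.10, adjusted p = 1.8e-07), the mTORC1 inhibitor Ddit4 (1.09 ± 0.29, adjusted p = 0.00531) and the phosphatidate phosphatase Lpin1 (1.02 ± 0.20, adjusted p = 0.000364) rose as well. Tigar, a phosphatase that slows glycolysis, was lower in HGPS and higher in aging. It had 8.54 to 10.2 CPM in 2-mo WT mice (median 9.18), 6.75 to 9.05 in HGPS mice (median 7.60) and 14.7 to 16.97 in 24-mo WT mice (median 16.1). Its level fell in HGPS (-0.24 ± 0.08, adjusted p = 0.0292) and rose in aging (0.78 ± 0.08, adjusted p = 3.45e-06), and the direct comparison of HGPS with 24-mo WT gave -1.01 ± 0.08 (adjusted p = 2.18e-08). Prodh (0.72 ± 0.21, adjusted p = 0.0314) and Pltp (0.35 ± 0.11, adjusted p = 0.0387) were the other genes of the list that rose in aging.

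Secreted and membrane proteins included Gdf15, with a larger fold change than Cdkn1a. Gdf15, a stress hormone, had 0.349 to 0.620 CPM in 2-mo WT mice (median 0.467), 2.81 to 8.81 in HGPS mice (median 7.46) and 0.270 to 0.713 in 24-mo WT mice (median 0.645). Its log2 fold change of HGPS against 2-mo WT was 3.82 ± 0.28 (14.1-fold, adjusted p = 2.38e-08) with the HGPS mice apart from both WT groups, in a gene that the filter kept only through the HGPS mice (891 counts in all, against 49 in 2-mo WT). Pgf, placental growth factor, had 1.78 to 4.39 CPM in 2-mo WT mice, 12.9 to 20.4 in HGPS mice and 4.28 to 21.7 in 24-mo WT mice. It rose in HGPS (2.61 ± 0.32, adjusted p = 4.97e-06) and in aging (1.95 ± 0.32, adjusted p = 0.000383), where the groups overlapped. The receptor kinase Epha2 (1.47 ± 0.21, adjusted p = 2.39e-05) and the matrix glycoprotein Thbs1 (1.41 ± 0.32, adjusted p = 0.00145) rose in HGPS against 2-mo WT. The chemokine Cx3cl1 rose in HGPS (0.82 ± 0.09, adjusted p = 2.37e-06) and in aging (0.88 ± 0.09, adjusted p = 3.27e-06), and HGPS differed from 24-mo WT by -0.06 ± 0.09. Altogether 7 of 15 genes of the list rose and 1 fell in HGPS against 2-mo WT, or 6 and 1 of 14 without Gdf15. Over all tested genes, 22% rose and 21.2% fell. In aging 3 of the 15 rose and 1 fell, beside 6.29% and 5.38% of all tested genes. Igfbp3 rose (0.87 ± 0.28, adjusted p = 0.046) and Sulf2 fell (-0.26 ± 0.08, adjusted p = 0.0316) in aging.

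In the last list, of targets with other functions, 11 of 15 tested genes rose and 3 fell in HGPS against 2-mo WT. Without Svop, 10 of 14 rose and 3 fell, beside 22% and 21.2% of all tested genes. Psrc1, a spindle protein, rose by 2.97 ± 0.27 (adjusted p = 2.05e-07), the scramblase Ano3 by 1.58 ± 0.18 (adjusted p = 2.54e-06) and the ribosomal protein Rps27l by 0.99 ± 0.09 (adjusted p = 1.16e-07). Rps27l, which carries the element shown above, had 43.5 to 47.9 CPM in 2-mo WT mice, 77.4 to 109 in HGPS mice and 31.4 to 43.2 in 24-mo WT mice, and it fell slightly in aging (-0.27 ± 0.09, adjusted p = 0.048). Svop, a synaptic vesicle protein, had no count in any 2-mo WT mouse, 11 to 28 counts in each HGPS mouse and 1 count in all 24-mo WT mice, so the filter kept it only through the HGPS mice. Set against 3 counts over the 2-mo WT group, its level was at least 23.1-fold higher in HGPS, and the median of the 6 lists stayed at 0.34 with Svop at that bound. Hic1, a repressor, fell by 1.08 in log2 (SE 0.26, adjusted p = 0.00284), and Inka2 and Tspan11 fell past both cut-offs. In aging 3 of the 15 rose and 3 fell, beside 6.29% and 5.38% of all tested genes. Psrc1 (1.17 ± 0.28, adjusted p = 0.00992), Cyfip2 (0.99 ± 0.14, adjusted p = 4.97e-05) and Ano3 (0.96 ± 0.18, adjusted p = 0.0016) rose. Besides Rps27l, Abhd4 (-0.19 ± 0.05, adjusted p = 0.0284) and Ikbip (-0.26 ± 0.07, adjusted p = 0.0121) fell.

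**Figure D3:**
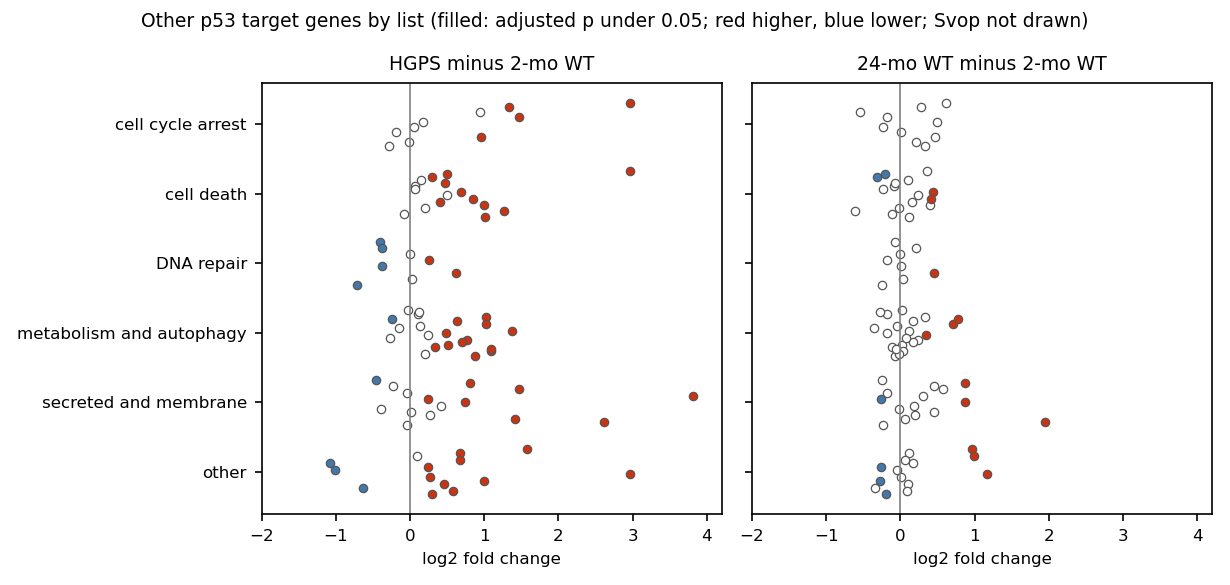
Log2 fold change (x axis) of each tested p53 target outside the 10 genes, by list (y axis), in HGPS minus 2-mo WT on the left and 24-mo WT minus 2-mo WT on the right. Filled points passed an adjusted p under 0.05 (red higher, blue lower). In the left panel 46 genes rose and 9 fell, in the right panel 12 rose and 6 fell, with Svop counted but not drawn.

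**Figure D4:**
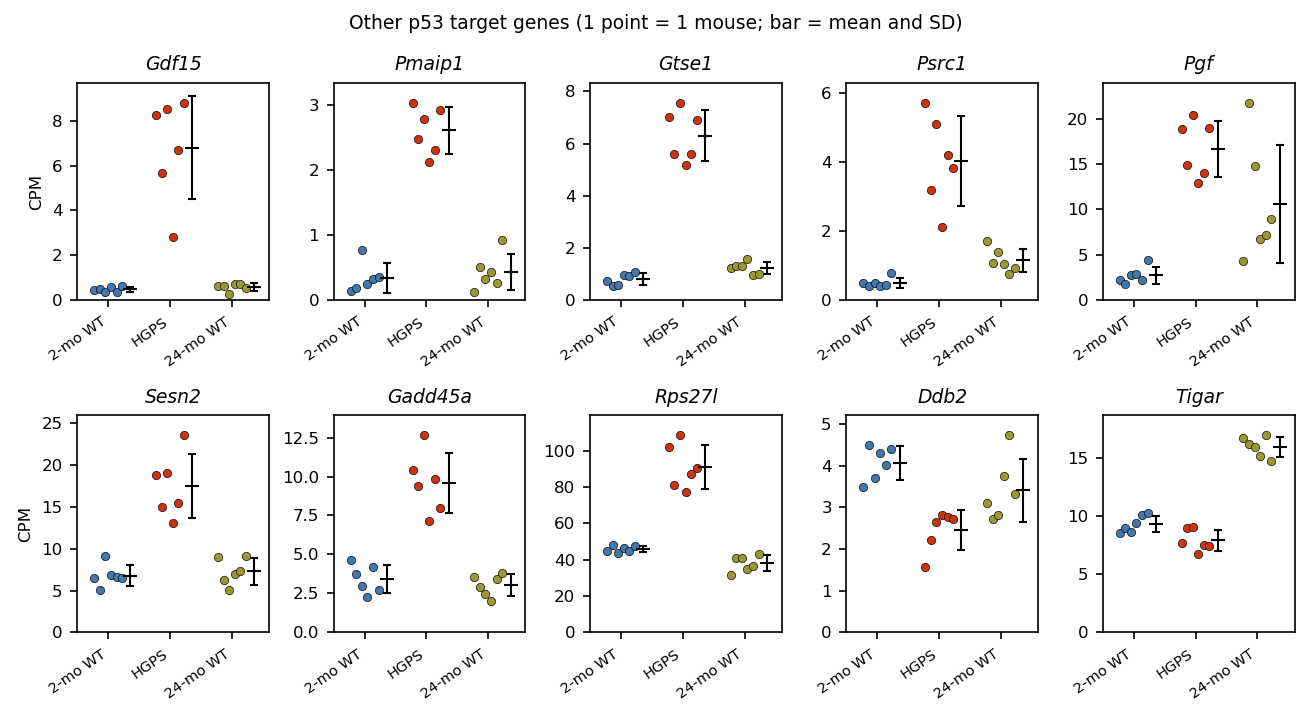
Level in CPM (linear axes from 0) of 10 p53 targets from these lists, with 1 point per mouse and the mean and SD of 6 mice. Gdf15 lies at 2.81 to 8.81 CPM in HGPS mice and below 1 CPM in all WT mice, Ddb2 is lowest in HGPS, and Tigar is highest in 24-mo WT mice.

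The summed RNA levels of several cell type markers differed between the groups, and their part in these differences was not tested. In bulk tissue, fewer cells of a type and less RNA per cell cannot be told apart. The summed level of 6 smooth muscle markers was 29300 to 37800 CPM in 2-mo WT mice, 19400 to 27200 in HGPS mice and 30300 to 34500 in 24-mo WT mice, so HGPS mice lay below both WT groups. Myh11 fell in HGPS (-1.17 ± 0.11, adjusted p = 2.05e-07) and Acta2 fell too (-0.60 ± 0.09, adjusted p = 3.03e-05), whereas Tagln did not pass (-0.005 ± 0.08, adjusted p = 0.97). The 6 macrophage markers summed to 288 to 424 CPM in 2-mo WT mice, 509 to 751 in HGPS mice and 263 to 517 in 24-mo WT mice. The 6 markers of proliferating cells summed to 10.4 to 16.3, 30.5 to 52.2 and 9.58 to 16.6 CPM, in the same order. No HGPS mouse overlapped 2-mo WT mice in these 3 lists. Brown fat markers summed to 106 to 635, 476 to 1770 and 121 to 410 CPM and white fat markers to 129 to 677, 589 to 1710 and 162 to 658 CPM. Endothelial markers (534 to 1320, 876 to 1170 and 473 to 1340 CPM) overlapped among all groups. Fibroblast markers summed to 2790 to 3130, 1840 to 2470 and 2320 to 3320 CPM. In that sum HGPS mice lay below 2-mo WT mice and overlapped 24-mo WT mice. Of the 5 fibroblast markers, 3 fell in HGPS against 2-mo WT at an adjusted p under 0.05, and Dpt and Lum did not pass. Against 24-mo WT, 2 fell and Dpt rose (0.60 ± 0.11, adjusted p = 0.000226). Markers of T cells, B cells, neutrophils and heart muscle stayed at or below 10.3 CPM in sum in every mouse, skeletal muscle at or below 8.28 and Schwann cells at or below 25.5, with Nppa and Ly6g at 0 in both WT groups.

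With the smooth muscle and macrophage scores as covariates, which themselves separated HGPS from 2-mo WT mice, the log2 fold change of Cdkn1a in that comparison was 2.51 ± 0.29. That of Trp53 was 0.575, beside 0.19 without covariates. All 10 genes kept their direction, in the contrast known when they were chosen, so nothing is read from that. In that fit none of the 85 other targets and none of all 15210 tested genes, the 10 included, passed both cut-offs in either direction. At an adjusted p under 0.05, 3 of the 85 rose, and how many of all tested genes did so was not counted. With brown fat and skeletal muscle scores instead, the log2 fold change of Cdkn1a was 2.80 ± 0.19. In that fit 10 of the 85 passed both cut-offs upward, as did 160 of all 15210 tested genes. The sample numbers in the count table also split the groups. All 2-mo WT mice had numbers from 41 to 46 and all 24-mo WT mice from 24 to 34. The HGPS mice lay outside both WT ranges, 3 with numbers from 19 to 23 and 3 from 48 to 50. What the numbers stand for was not given. If they mark a batch, it and age cannot be told apart in the aging comparison. Within numbers from 41 to 50, the log2 fold change of HGPS against 2-mo WT was 2.87 ± 0.12 in Cdkn1a, 2.08 ± 0.10 in Eda2r and 0.39 ± 0.12 in Zmat3. There 13 of the 85 other targets passed both cut-offs upward, as did 285 of all 15210 tested genes. Cdkn1a had a mean of 121 CPM in the HGPS mice of the lower range (111 to 139) and 104 CPM in those of the upper range (85.0 to 121).

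The regulators of p53 changed about as often as all tested genes did. Of 28 tested, 7 rose (25%, beside 22% of all tested genes) and 5 fell (beside 21.2%) in HGPS against 2-mo WT at an adjusted p under 0.05, and 1 passed both cut-offs in each direction. Without Chek1 and Trp63, which only the HGPS mice brought past the filter, 6 of 26 rose and 5 fell. Mdm4, the partner of Mdm2 (-0.05 ± 0.10, adjusted p = 0.743), and Ppm1d, the phosphatase that turns the response off (-0.07 ± 0.09, adjusted p = 0.577), did not pass. Brca1 rose from 0.770 to 1.118 CPM in 2-mo WT mice to 1.72 to 2.77 CPM in HGPS mice (log2 fold change 1.22 ± 0.20, adjusted p = 8.46e-05), and Chek1, kept by the filter only through the HGPS mice, rose with overlapping groups (0.82 ± 0.32, adjusted p = 0.0445). Trp53bp1, whose product marks DNA breaks, had 57.7 to 72.9 CPM in 2-mo WT mice, 32.8 to 44.9 in HGPS mice and 53.9 to 70.7 in 24-mo WT mice, a fall of 0.79 ± 0.08 in log2 (adjusted p = 9.65e-07) with the HGPS mice apart. Prkdc, the DNA-dependent kinase, fell too (-0.48 ± 0.10, adjusted p = 0.000636). Rpl11 (0.44 ± 0.09, adjusted p = 0.000611) and Rpl5 (0.38 ± 0.08, adjusted p = 0.00131), ribosomal proteins that inhibit Mdm2, both rose. In aging, Mdc1 rose (0.39 ± 0.12, adjusted p = 0.0407) and Rpl5 fell (-0.27 ± 0.08, adjusted p = 0.0424), and the other 26 did not pass. Against 24-mo WT, Trp63 was higher in HGPS (2.48 ± 0.52, adjusted p = 0.000658) on 193 and 26 counts in all, also kept only through the HGPS mice, and Trp73 was too low to test.

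p21 is one of 3 members of the Cip/Kip family, and the other two did not follow it. Cdkn1b, which encodes p27, had 67.5 to 91.7 CPM in 2-mo WT mice (median 79.9), 50.2 to 65.8 in HGPS mice (median 57.2) and 57.0 to 67.2 in 24-mo WT mice (median 62.1). It fell in HGPS (-0.49 ± 0.08, adjusted p = 7.24e-05) and in aging (-0.37 ± 0.08, adjusted p = 0.00373), with 2-mo WT mice wholly above both groups. Cdkn1c, which encodes p57, had 10.8 to 15.8, 9.37 to 14.4 and 13.9 to 17.4 CPM in the same order and passed in neither of these comparisons (-0.20 ± 0.11, adjusted p = 0.14, and 0.29 ± 0.11, adjusted p = 0.0846). In the INK4 family, Cdkn2b rose in HGPS (1.04 ± 0.16, adjusted p = 3.7e-05) and in aging (0.52 ± 0.16, adjusted p = 0.0392), Cdkn2c rose in HGPS (0.87 ± 0.21, adjusted p = 0.00243) and Cdkn2d passed in neither. Cdkn2a, the locus of p16 and p19ARF, was too low to test, with 5 counts in all 2-mo WT mice, 4 in all HGPS mice and 17 in all 24-mo WT mice, so a difference was not detectable at this depth.

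Several cyclins and kinases that p21 acts on were higher beside it. Of 23 tested CDK inhibitors and p21 partners, 13 rose and 4 fell in HGPS against 2-mo WT, where 22% and 21.2% of all tested genes did. Without Ccne1, 12 of the other 22 rose. Ccne2, a cyclin of the start of DNA replication, had 1.62 to 2.67 CPM in 2-mo WT mice, 6.30 to 9.26 in HGPS mice and 0.762 to 3.37 in 24-mo WT mice (log2 fold change of HGPS against 2-mo WT 1.77 ± 0.25, adjusted p = 1.72e-05). Ccnb1 (1.99 ± 0.28, adjusted p = 1.76e-05), Cdk1 (1.72 ± 0.32, adjusted p = 0.000262) and Ccne1 (1.68 ± 0.34, adjusted p = 0.000611), which act at mitosis and at the start of replication, rose with the HGPS mice apart, as the markers of proliferating cells above did, and Ccne1 was kept by the filter only through the HGPS mice. Pcna, the replication clamp that p21 binds, rose by 0.43 ± 0.08 (adjusted p = 0.000505). In aging 2 of the 23 rose, Cdkn2b and Ccnd1 (0.50 ± 0.10, adjusted p = 0.00207), and 4 fell, among them Ccnd2 (-0.44 ± 0.10, adjusted p = 0.00622) and Cdk4 (-0.30 ± 0.06, adjusted p = 0.003). Over all tested genes, 6.29% rose and 5.38% fell in aging.

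**Figure D5:**
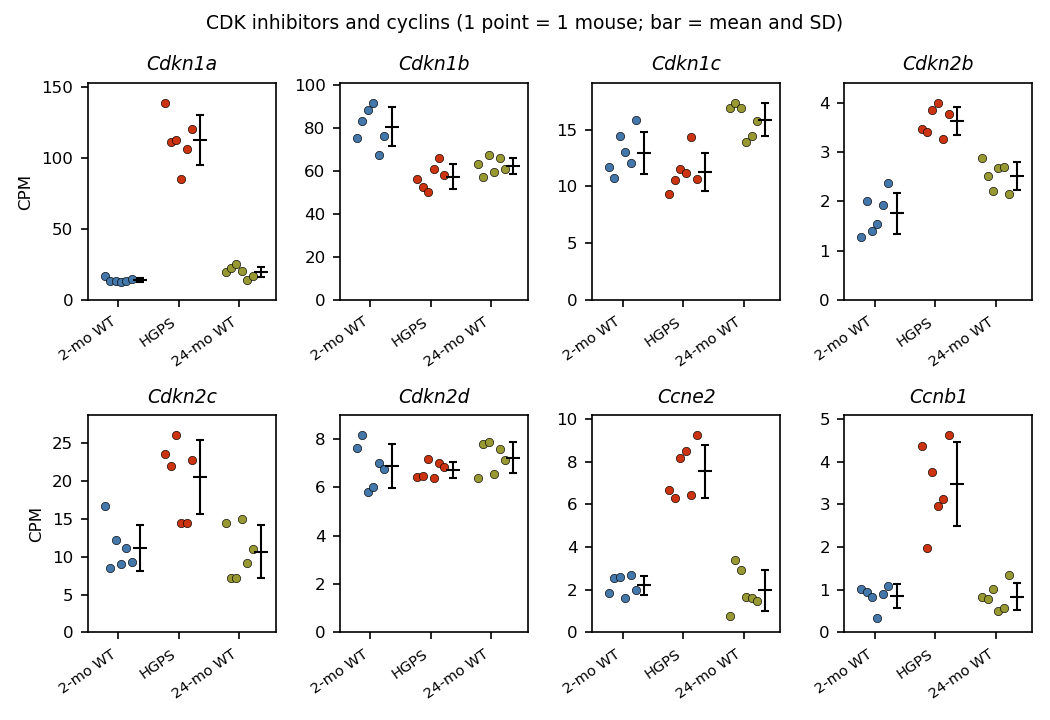
Level in CPM (linear axes from 0) of 6 CDK inhibitors and 2 cyclins, with 1 point per mouse in 2-mo WT, HGPS and 24-mo WT aortas and the mean and SD of 6 mice. Cdkn1a and Ccne2 are high in HGPS, while Cdkn1b is highest in 2-mo WT, at 67.5 to 91.7 CPM.

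Markers of senescence and its secreted factors, with which p21 is often read, were partly measurable. Of 19, 14 were tested, and 5 rose and 2 fell in HGPS against 2-mo WT, beside 22% and 21.2% of all tested genes. In aging 3 rose, or 2 of 13 without Il1b, beside 6.29% of all tested genes. The filter kept Il1b only with the 24-mo WT mice included. The chemokine Ccl2 had 0.210 to 0.872 CPM in 2-mo WT mice, 1.30 to 5.23 in HGPS mice and 0.762 to 2.14 in 24-mo WT mice, and it rose in HGPS (2.80 ± 0.41, adjusted p = 3.37e-05) and in aging (1.73 ± 0.43, adjusted p = 0.011). Timp1, an inhibitor of metalloproteinases, rose in HGPS (1.68 ± 0.17, adjusted p = 5.4e-07), as did the elastase Mmp12 (1.82 ± 0.42, adjusted p = 0.00174) and Cxcl1 (1.57 ± 0.57, adjusted p = 0.0318). The metalloproteinase Mmp3 rose in aging (0.95 ± 0.14, adjusted p = 0.000169). The cytokine Il1b passed there too (2.85 ± 0.83, adjusted p = 0.03). It had 19 counts in all 2-mo WT mice and 141 in all 24-mo WT mice. The Il1b groups overlapped, and the highest 24-mo WT mouse held 72 of the 141 counts, with the lowest at 3. Glb1, the gene of the senescence-associated galactosidase, fell in HGPS (-0.38 ± 0.07, adjusted p = 0.000437), and Lmnb1, lost in many senescent cells, did not pass (0.43 ± 0.23, adjusted p = 0.132). Il6, Il1a, Cxcl2, Tnf and Csf2 were too low to test. The macrophage markers given above were higher in HGPS as well, and their part in these differences was not tested.

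Genes with a pattern most like that of Cdkn1a over the 18 mice were sought among the 10707 genes that averaged 100 counts or more, as a description. By the root mean square difference of log2 CPM relative to the 2-mo WT mean, the nearest were Psat1 (0.458), Hmox1 (0.463), Eda2r (0.55), Col8a1 (0.568) and Syt12 (0.588), of which Eda2r is one of the 10. By Pearson's r of the deviations from group means, the highest were Polr2e (0.868), Ppp1r14b (0.831), Coa6 (0.805), Epn1 (0.805) and Zbtb7b (0.802), none of them a listed p53 target. All genes of a mouse share 1 library. Within groups, the deviations of Cdkn1a were followed against those of the other 9 genes over the 18 mice, in 9 relations. The strongest was with Phlda3 (Pearson's r = 0.599, permutation p = 0.0163, adjusted 0.147, Spearman's rho = 0.622, permutation p = 0.0124, adjusted 0.112), and without the 2 mice farthest from the median in Cdkn1a r was 0.458. None of the 9 passed an adjusted p under 0.05, and their r ran from -0.222 (Trp53inp1) to 0.599.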

How the data were processed

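RNA of whole descending aortas was sequenced in 6 mice per group with a stranded total RNA kit. Per the methods, the authors assigned reads to GENCODE M23 transcripts with salmon and summed them per gene with tximport, and they deposited estimated counts as whole numbers for 54281 genes, without normalization. The submitters' processing notes name Bowtie 0.12.2 and the build GRCm38 (mm10) instead, and its role was not given. The members and gene lists were chosen with earlier results of these data known, also those on p53 targets, cell types and senescence. Symbols and coordinates came from GENCODE M21 (54107 identifiers matched) and promoter windows from RefSeq (GRCm38.p6).

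The filter kept genes that reached 10 counts in 6 or more mice. After TMM scaling, glmQLFit and glmQLFTest of edgeR 4.0.16 (R 4.3.3) were run with the 3 groups in 1 fit and 15 residual degrees of freedom. Adjusted p-values are Benjamini-Hochberg over 15210 genes. The standard error is the log2 fold change over the square root of F. Cut-offs were 1.5-fold with an adjusted p under 0.001, and an adjusted p under 0.05. CPM use TMM library sizes, and log2 CPM a prior count of 2. Marker scores averaged the log2 CPM of a list's tested genes. Correlations of deviations from group means used 100000 permutations within groups. All 10 genes were named, and in each list and comparison the 4 largest changes at an adjusted p under 0.05, with a few fixed genes. Some genes that this rule names are not reported here. Further genes named in a list (among them Tnfrsf10b, Cx3cl1, Rps27l, Inka2, Tspan11, Pcna and Glb1) were picked after their values were seen. Alternatives were DESeq2 1.42.0, other normalizations and filters, the replicate number as a block, marker scores as covariates, the 2 groups alone, and each mouse left out. The code was tested on simulated data. Depth was 12413229 to 30844775 counts per mouse, and p-values measure the spread between mice. The authors' own fold changes were not used.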

Additional observations from a re-analysis of the deposited data

Results flagged for a closer look

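Over 30 sets of 6 mice (10 genes in 3 groups), the highest and lowest mouse were compared with the rest by Dixon's ratio of gap to range on log2 CPM, against its 95% critical value. In Mdm2 one HGPS mouse, replicate 1, had 78.3 CPM, and the next highest had 67.6 CPM, a ratio of 0.642. Chance alone marks about 1 in 20 such sets. With each mouse left out in turn, the log2 fold change of Mdm2 in HGPS against 2-mo WT stayed between 0.62 and 0.70.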

How the results depend on the processing

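The counts below are of genes past both cut-offs unless an adjusted p under 0.05 is named, and the cause of a moved count was not tested. Counts of the 10 genes in the HGPS comparisons describe values known when they were chosen and support nothing. With smooth muscle and macrophage scores as covariates, 0 of the 10 genes were past both cut-offs in HGPS against 2-mo WT or 24-mo WT (7 in each before), as were 0 of the 85 other targets in each (22 and 16 before), and 3 and 4 rose at an adjusted p under 0.05 (46 in each before). With brown fat and skeletal muscle scores, the other targets numbered 10 and 7, and 29 rose at an adjusted p under 0.05 against 24-mo WT. That fit put 160 and 244 of all 15210 tested genes past both cut-offs upward. In neither covariate fit was the share of all tested genes at an adjusted p under 0.05 counted, so those counts have no background beside them. With an adjusted p under 0.05 and no fold the other targets numbered 46, 12 in aging (4 before) and 46. With a mean of at least 100 counts, 9 other targets were past both cut-offs against 24-mo WT, as were 639 of 10708 tested genes upward. Within sample numbers 41 to 50, a choice made after seeing the data, 13 other targets were past both cut-offs against 2-mo WT, as were 285 tested genes upward. Under DESeq2, size factors, upper quartile scaling, no count filter, the 2 groups alone and each mouse left out, the counts of the 10 genes and of the other targets stayed within 1.5 times the values reported, and no called value was reversed. Values near 0 (Zmat3 against 24-mo WT, Trp53 and Trp53inp1 in aging) changed sign under some settings. Leaving out single mice moved the aging log2 fold change of Cdkn1a, whose call held, between 0.40 and 0.56 and that of Ccng1 between 0.225 and 0.303.

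Same-numbered mice of different groups were different mice, and whether they shared anything beyond the number was not given. Of 18 pairs across groups, 2 had deviations correlated above 0.1 (range -0.162 to 0.172), and 3 correlated best with their own number. With the replicate number as a block, 7 of the 10 genes were past both cut-offs in each HGPS comparison, and 22, 3 and 14 other targets were called in HGPS against 2-mo WT, aging and HGPS against 24-mo WT. That fit put 677, 136 and 795 of all 15210 tested genes past both cut-offs upward, in the same order. Genes under about 10 counts per mouse, Cdkn2a among them, are below what this depth can compare.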
